A study of Mus musculus with 12 samples.

Results

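The genes described here are immediate-early and heat shock stress genes of the mouse thoracic aorta: 44 were listed, and 43 were measured, of 19687 genes tested. A gene was taken from the deposited rows that carry exactly 1 gene symbol, by the row with the highest mean over the 12 arrays. Hspa1b was listed and had no such row. The measured genes were 31 immediate-early genes and 12 heat shock and unfolded protein response genes.

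Immediate-early genes are switched on within minutes of a stimulus, without new protein synthesis, by transcription factors already present in the cell, and they include the AP-1 subunits, the Egr zinc fingers and the Nr4a orphan receptors. Heat shock genes encode chaperones that hold unfolded proteins and are induced through heat shock factor, and the unfolded protein response adjusts the chaperones of the endoplasmic reticulum through Xbp1, Atf4 and Atf6. In blood vessels both programmes respond to stretch, injury and the handling of the tissue.

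Arteries were taken from 12 male C57BL/6 mice, 1 mouse per array. In 7 mice the human P467L form of PPARγ, a dominant-negative mutant of this nuclear receptor, was expressed from the smooth muscle myosin heavy chain promoter, and 5 nontransgenic littermates served as controls. No treatment was applied to either group, and the labels give no age. The transgene is driven in smooth muscle alone, whereas RNA came from the whole vessel, and no other genotype shares the comparison. The question was whether stress genes differ between the P467L and the nontransgenic aorta, and how they vary from mouse to mouse. The labels do not state how long dissection took.

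Values are log2 intensities of Affymetrix mouse exon arrays (1.0 ST), in which a difference of 1 is a doubling. The arrays had medians of 4.74 to 4.79, while their upper quartiles ran from 6.10 to 6.38. The 8 smooth muscle markers were all above background, Myh11 at a mean of 11.83 among them. Background was set at 5.18, the 95th percentile over 919 receptor genes of the olfactory and vomeronasal families, and 40 of the 43 stress genes had a mean above it. Pparg itself was 6.81 ± 0.19 (SD, n = 5) in nontransgenic and 6.82 ± 0.24 (SD, n = 7) in P467L aortas, and the labels do not say whether its row detects the transgene. Nontransgenic replicate 2 and P467L replicates 1 and 2 correlated least with the other arrays, with median correlations of 0.970 to 0.974. Of 10 skeletal muscle markers 7 were above background. The mean deviation of all 10 was 2.18 in P467L replicate 4 against at most 0.28 in the nontransgenic mice. Of 6 brown fat markers 5 were above background. The mean deviation of all 6 ran from -0.39 to 0.69 in nontransgenic and from -0.87 to 0.49 in P467L mice. The part of these other tissues in the stress gene values was not tested. RNA came from bulk tissue, so fewer cells of a type and less RNA per cell cannot be told apart.

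No stress gene passed the test between the groups. In limma, 0 of the 43 had an adjusted p under 0.05, while 48 of all 19687 genes did (0.244%). An unadjusted limma p under 0.05 was found for 2 of the 43, Hspa1a and Maff, against 4.82% of all genes, which is close to the background share. The groups overlapped for every one of the 43, and 0.726% of all genes had groups that did not overlap. Mean levels were higher in P467L for 19 and lower for 24, with a median log2 difference of -0.04 against 0.001 over all genes. For 26 of the 43 the difference was smaller than 1 SE.

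The precision of the comparison varied by gene. Standard errors ran from 0.06 for Atf4 to 0.34 for Hsp90aa1, with a median of 0.127. The 95% interval of the difference included 0 for 41 genes, lay within ±0.5 for 31 and within ±1 for 41. The intervals of Hspa1a and Fosb reached beyond -1. The P467L minus nontransgenic differences spread on either side of 0 within each of the 5 functional groups of genes.

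**Figure D1:**
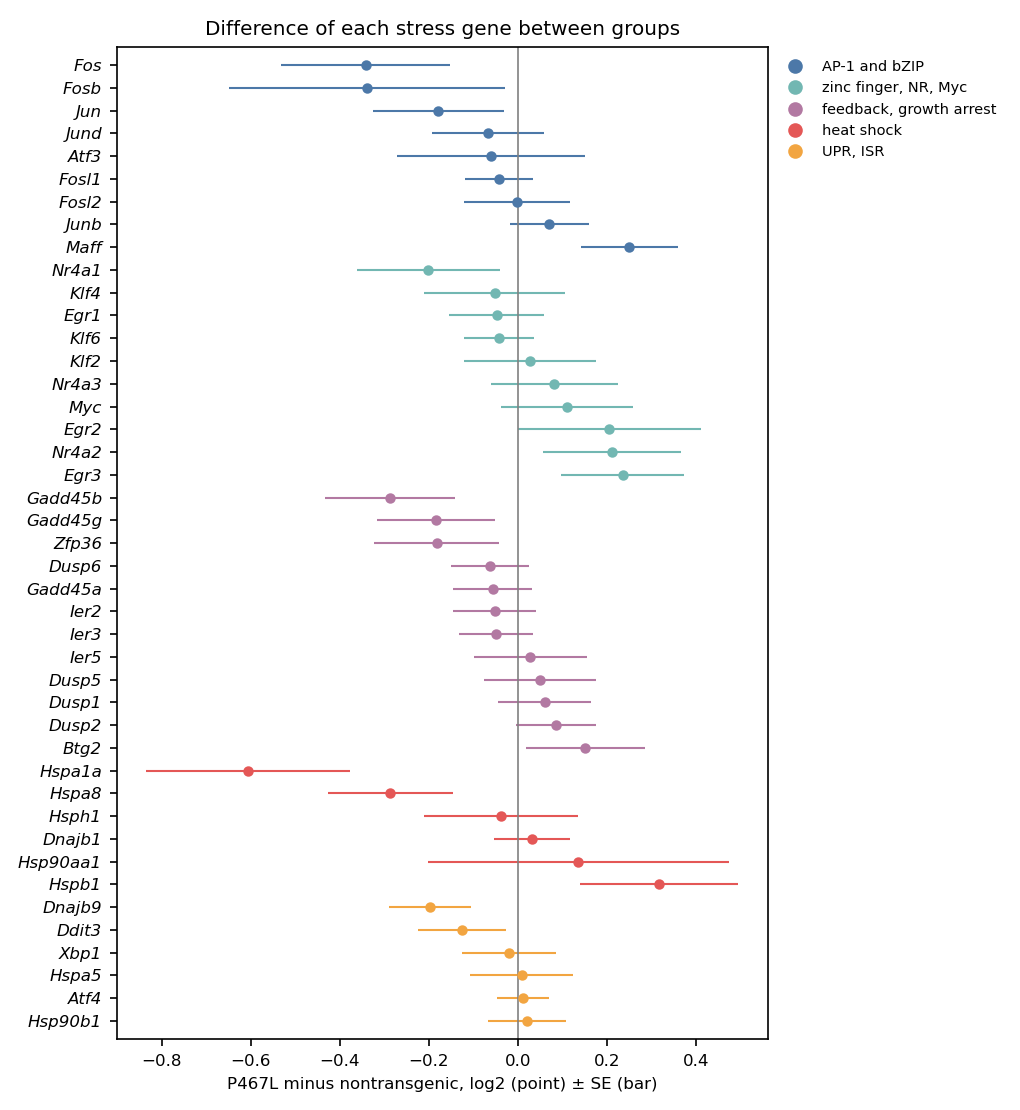
Log2 difference of each of the 43 stress genes between 7 P467L and 5 nontransgenic aortas (points, horizontal axis) with its standard error (bars), ordered within 5 functional groups marked by colour. Hspa1a lies farthest from 0 at -0.61, and no gene passed the test across all genes.

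Among the AP-1 and other bZIP factors, 9 genes were measured, all above background, and 7 had lower and 2 higher means in P467L (median difference -0.06). Fos, the archetype of the immediate-early class and a partner of Jun proteins in AP-1, was 7.48, 6.60, 7.22, 6.85 and 6.51 in the nontransgenic mice, and in P467L its lowest, median and highest values were 6.08, 6.58 and 7.00. Nontransgenic replicates 1 and 3 were above every P467L mouse and the other 3 lay within the P467L range. The difference was -0.34 ± 0.19 (SE; limma adjusted p = 0.999), with a 95% interval of -0.75 to 0.07. Fosb, a Fos relative, reached 7.66 in nontransgenic replicate 3, where the other 4 nontransgenic values were 6.49, 6.12, 6.22 and 5.54. In P467L it ran from 5.48 over a median of 6.07 to 6.88, and the difference was -0.34 ± 0.31. Its within-group spread was larger than that of 98.0% of all genes.

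Jun, the basic leucine zipper partner of Fos, was 7.87, 7.04, 7.29, 7.67 and 7.37 in nontransgenic and 6.86, 7.33 and 7.49 (lowest, median, highest) in P467L aortas. The P467L range lay within the nontransgenic one except for its lowest mouse, and the difference was -0.18 ± 0.15. Atf3, a stress-induced member of the ATF/CREB family, was 8.70, 7.49, 7.96, 7.97 and 7.45 in the nontransgenic mice. In P467L its lowest, median and highest values were 7.47, 7.81 and 8.36. Nontransgenic replicate 1 was the highest of the 12 mice for Fos, Jun and Atf3 alike. The group means of Atf3 differed by -0.06 ± 0.21.

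Maff, a small Maf protein that lacks a transactivation domain, was the other gene with an unadjusted p under 0.05. Its nontransgenic values were 5.31, 5.16, 5.29, 5.24 and 5.08, all near the background level, and its P467L values ran from 5.09 over a median of 5.47 to 5.80. All P467L mice but replicate 4 were above every nontransgenic mouse. The difference was 0.25 ± 0.11 (limma unadjusted p = 0.0373, adjusted p = 0.983). Fosl1 and Fosl2, the Fra proteins, differed by -0.04 ± 0.08 and -0.00 ± 0.12, Junb by 0.07 ± 0.09 and Jund by -0.07 ± 0.13. The other row of Jund, with a mean of 6.11, gave 0.07 and correlated with the row used at 0.25 across mice. That of Fosl2, with a mean of 4.73 under background, gave 0.12 and correlated at -0.30.

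**Figure D2:**
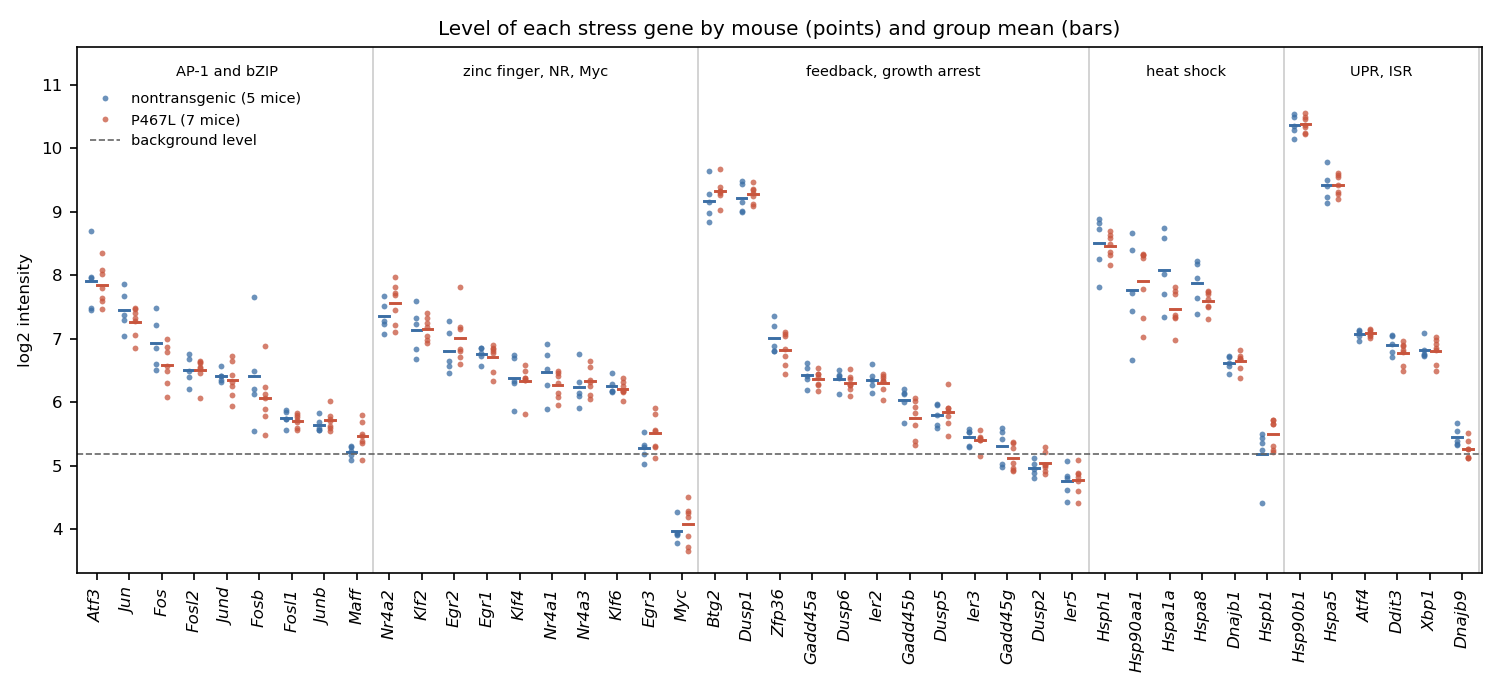
Log2 intensity of each stress gene in each of 5 nontransgenic (blue) and 7 P467L mice (red), with group means as bars and the background level of 5.18 as a dashed line. The groups overlap for all 43 genes; heights of different genes come from different probes and are not set against each other.

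Promoters of Fos, Atf3 and Btg2 are shown because Atf3 and Btg2 were the genes that passed with Fos on deviations from group means, though not on the values themselves (given with the correlations). Each is the 250 bases before the RefSeq start on GRCm38.p6, written 5′ to 3′ on the gene's strand, with capitals for TGACG, the core of the cyclic AMP response element bound by CREB and ATF factors, on either strand. Fos lies at chr12:85473640-85473889 on the plus strand, Atf3 at chr1:191183334-191183583 and Btg2 at chr1:134079156-134079405, both on the minus strand.
Fos: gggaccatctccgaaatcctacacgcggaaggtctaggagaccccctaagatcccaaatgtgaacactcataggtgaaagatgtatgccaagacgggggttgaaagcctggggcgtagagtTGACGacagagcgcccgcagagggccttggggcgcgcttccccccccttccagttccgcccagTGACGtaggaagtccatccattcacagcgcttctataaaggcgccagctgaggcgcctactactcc
Atf3: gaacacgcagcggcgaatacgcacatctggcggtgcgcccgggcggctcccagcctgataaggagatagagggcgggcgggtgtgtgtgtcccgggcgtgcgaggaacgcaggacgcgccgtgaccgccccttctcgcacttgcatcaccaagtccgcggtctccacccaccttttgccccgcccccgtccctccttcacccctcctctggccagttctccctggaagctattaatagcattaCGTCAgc
Btg2: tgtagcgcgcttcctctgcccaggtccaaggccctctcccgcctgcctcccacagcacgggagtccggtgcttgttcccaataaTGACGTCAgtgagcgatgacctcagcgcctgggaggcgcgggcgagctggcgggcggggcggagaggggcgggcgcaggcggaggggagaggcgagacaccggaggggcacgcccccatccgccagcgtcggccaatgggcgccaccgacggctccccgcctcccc
The core occurs 2 times in the Fos window and 1 time in that of Atf3, and in Btg2 both copies overlap as the full palindrome TGACGTCA. RefSeq promoter windows of 250 bases before to 50 after the start were found for 37 of the 44 listed genes. TGACG was present on either strand in 23 of their 45 windows (51.1%), which belong to 20 genes, and in 20.8% of all 32851 windows. The full TGACGTCA occurred in Btg2, Dusp1 and Maff (1.79% of all windows). The AP-1 element TGACTCA, searched on either strand, was in the windows of Ddit3 and Hspa5 (5.20% of all windows). A CArG box, the serum response factor motif made of CC, 6 bases of A or T, and GG, was in those of Dusp5, Egr2 and Zfp36 (1.63% of all windows). A match describes the letters and is no evidence of binding.

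The zinc finger, nuclear receptor and Myc factors had 10 genes measured, with 6 higher and 4 lower in P467L (median difference 0.05). Egr1, the zinc finger most used as a marker of acute stimulation, was 6.85, 6.86, 6.78, 6.72 and 6.57 in nontransgenic mice and 6.33, 6.81 and 6.90 (lowest, median, highest) in P467L mice. The groups overlapped, with a difference of -0.05 ± 0.11. Egr2 was 6.45, 7.09, 7.28, 6.57 and 6.64 in nontransgenic and 6.60, 6.83 and 7.81 in P467L aortas. P467L replicate 3 was the highest of the 12 mice, and the difference was 0.21 ± 0.20. Egr3, another member of the family, differed by 0.24 ± 0.14.

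The Nr4a orphan nuclear receptors act without a known ligand and are induced by cyclic AMP and calcium signals. Nr4a1 was 6.91, 6.74, 6.52, 6.28 and 5.89 in nontransgenic mice and ran from 5.96 over a median of 6.31 to 6.49 in P467L mice, a difference of -0.20 ± 0.16. The first 3 nontransgenic replicates were above all P467L mice and the fifth below them all. Nr4a2 differed by 0.21 ± 0.15 and Nr4a3 by 0.08 ± 0.14, opposite in sign to Nr4a1. Klf2, which flow induces in endothelium, differed by 0.03 ± 0.15, Klf4, a repressor of contractile genes in smooth muscle, by -0.05 ± 0.16 and Klf6 by -0.04 ± 0.08. Myc, the growth-promoting helix-loop-helix factor, had a mean of 4.03, under background, and its difference of 0.11 ± 0.15 says little about the transcript.

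The early response feedback and growth arrest genes numbered 12, of which 5 had higher and 7 lower means in P467L (median difference -0.05). Gadd45b, a stress sensor that binds MAP kinase kinase kinases, was 6.00, 6.15, 6.12, 6.21 and 5.67 in nontransgenic and 5.33, 5.83 and 6.06 (lowest, median, highest) in P467L aortas. Nontransgenic replicates 2, 3 and 4 were above every P467L mouse, and the difference was -0.29 ± 0.15 (limma unadjusted p = 0.0696, adjusted p = 0.999). Gadd45g differed by -0.18 ± 0.13 and Gadd45a by -0.06 ± 0.09. Zfp36, tristetraprolin, which speeds the decay of AU-rich mRNAs, differed by -0.18 ± 0.14.

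Btg2, an antiproliferative factor that recruits deadenylases, was 9.64, 8.84, 9.28, 9.16 and 8.98 in nontransgenic and 9.03, 9.33 and 9.67 in P467L mice. Its means were 9.18 ± 0.31 (SD, n = 5) and 9.33 ± 0.19 (SD, n = 7), and the difference was 0.15 ± 0.13. The Dusp genes encode phosphatases that shut off MAP kinases. Dusp1 differed by 0.06 ± 0.10, Dusp5 by 0.05 ± 0.13 and Dusp6 by -0.06 ± 0.09. Other rows of Dusp5, with means of 5.70 and 2.87, gave 0.07 and 0.26. Dusp2 and Ier5 had means under background, 5.01 and 4.77. Ier2 and Ier3, small early response proteins, differed by -0.05 ± 0.09 and -0.05 ± 0.08.

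The cytosolic heat shock genes held the largest difference of the 43. Hspa1a, the inducible HSP70 chaperone, was 7.34, 8.74, 8.02, 8.58 and 7.71 in the nontransgenic mice, a mean of 8.08 ± 0.59 (SD, n = 5). In P467L its lowest, median and highest values were 6.98, 7.38 and 7.82, a mean of 7.47 ± 0.30 (SD, n = 7). Nontransgenic replicates 2, 3 and 4 were above every P467L mouse, while replicate 1 was at the level of the lower P467L mice. The difference was -0.61 ± 0.23 (limma unadjusted p = 0.0196, adjusted p = 0.773), a fold of 0.657 with a 95% interval of 0.467 to 0.924. It did not pass the test, and 21 other settings of the analysis gave differences between -0.79 and -0.32 that did not pass either. The value nearest 0 came without the 3 arrays that correlated least with the rest, 1 of which, nontransgenic replicate 2, was the highest for Hspa1a. Hspa1a has a near-identical neighbour, Hspa1b, and the array row cannot be assigned to 1 of the copies with certainty. Its promoter is shown because it carries a heat shock element, in capitals, and because it gave the largest difference. The window is chr17:34972157-34972406 on the minus strand of GRCm38.p6, from RefSeq.
Hspa1a: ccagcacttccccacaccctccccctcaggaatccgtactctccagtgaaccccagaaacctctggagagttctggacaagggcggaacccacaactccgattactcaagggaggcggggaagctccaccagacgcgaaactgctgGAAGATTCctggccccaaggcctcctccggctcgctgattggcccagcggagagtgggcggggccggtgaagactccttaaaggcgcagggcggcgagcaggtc
A heat shock element was searched as GAANNTTC or TTCNNGAA and was in 8 of the 45 windows of listed genes (17.8%) and in 15.1% of all windows. The 8 windows belonged to Hspa1a, Hspa1b, Hspb1 and Hsph1, and to the immediate-early genes Egr2, Fosl2 and Jun.

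Hspa8, the constitutive HSP70 relative, was 8.18, 7.39, 7.64, 8.23 and 7.96 in nontransgenic and 7.32, 7.62 and 7.75 in P467L aortas, with a difference of -0.29 ± 0.14 (limma unadjusted p = 0.0613, adjusted p = 0.999). Its other rows gave 0.15 and 0.05, and the first of these correlated with the row used at -0.62 across mice, so the rows disagree. Hsp90aa1, the inducible HSP90, was 6.66, 7.72, 8.66, 8.40 and 7.43 in nontransgenic and 7.02, 8.27 and 8.34 in P467L mice. It had the largest within-group spread of the 43, above that of 98.7% of all genes, and the difference was 0.14 ± 0.34. Other rows of Hsp90aa1, with means of 5.49 and 2.75, gave -0.10 and 0.07. They correlated with the row used at 0.12 and 0.09 across mice. Hspb1, the small heat shock protein HSP27, was 5.50, 5.24, 5.43, 5.36 and 4.40 in nontransgenic and 5.22, 5.65 and 5.72 in P467L mice, a difference of 0.32 ± 0.18. The lowest value belonged to nontransgenic replicate 5 and lay under the background of 5.18. Without that mouse the difference of Hspb1 was 0.12. Hsph1, a nucleotide exchange partner of HSP70, differed by -0.04 ± 0.17 and Dnajb1, its HSP40 cochaperone, by 0.03 ± 0.09.

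The 6 unfolded protein and integrated stress response genes gave the smallest spread, with a median within-group SD of 0.16 on the log2 scale against 0.19 over all genes. Hspa5, the endoplasmic reticulum HSP70 known as BiP, was 9.24, 9.41, 9.79, 9.51 and 9.14 in nontransgenic and 9.20, 9.42 and 9.62 in P467L mice. The 2 ranges nearly coincided, with a difference of 0.01 ± 0.12 and a 95% interval of -0.24 to 0.26. Hsp90b1, the reticulum HSP90 known as GRP94, was 10.14, 10.36, 10.50, 10.54 and 10.30 against 10.23, 10.37 and 10.56, and differed by 0.02 ± 0.09. Atf4, the translationally induced factor of the integrated stress response, spanned 0.19 over the 12 mice, with a within-group spread at percentile 0.615 of all genes, and differed by 0.01 ± 0.06. Its mRNA level says nothing of its translation. Ddit3, the target of Atf4 known as CHOP, differed by -0.12 ± 0.10 and Xbp1 by -0.02 ± 0.11. Dnajb9, a cochaperone of BiP, was 5.38, 5.32, 5.67, 5.54 and 5.35 in nontransgenic and 5.11, 5.26 and 5.52 in P467L mice, a difference of -0.20 ± 0.09 (limma unadjusted p = 0.0518, adjusted p = 0.999). Its levels were close to background, and its other row, with a mean of 2.93 under background, gave 0.02.

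Promoters of Hspa5 and Hsp90b1 are shown because the full ER stress element, CCAAT and CCACG with 9 bases between, was found in the windows of these 2 listed genes and in 0.119% of all windows. Capitals mark its copies, 1 in Hspa5 and 2 in Hsp90b1, on either strand. The Hspa5 window is chr2:34771840-34772089 on the plus strand and that of Hsp90b1 chr10:86705445-86705694 on the minus strand, GRCm38.p6 from RefSeq.
Hspa5: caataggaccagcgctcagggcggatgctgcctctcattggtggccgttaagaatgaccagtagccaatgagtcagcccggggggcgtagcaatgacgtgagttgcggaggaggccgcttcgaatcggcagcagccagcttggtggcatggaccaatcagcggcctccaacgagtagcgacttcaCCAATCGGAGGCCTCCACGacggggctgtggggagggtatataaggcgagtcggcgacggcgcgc
Hsp90b1: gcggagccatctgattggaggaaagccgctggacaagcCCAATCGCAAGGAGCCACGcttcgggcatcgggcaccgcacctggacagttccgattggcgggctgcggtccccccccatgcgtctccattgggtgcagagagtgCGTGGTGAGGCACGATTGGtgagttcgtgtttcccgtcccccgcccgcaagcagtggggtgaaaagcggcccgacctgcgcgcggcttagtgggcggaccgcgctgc

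The stress genes were next compared across mice. The 903 pairs of the 43 genes were each tested by a permutation test over the 12 mice, with Benjamini-Hochberg adjustment over the 903. Pearson r was positive for 584 pairs and negative for 319, with a median of 0.14, and 82 pairs (9.08%) had an unadjusted p under 0.05. Shares by p, adjusted or not, were not computed over pairs of all genes, so these counts are not read as a trait of stress genes. On deviations from group means 8.08% of the pairs had r over 0.6, against 8.66% of the pairs of all genes and 15.1% of those of genes above background. Only 2 pairs passed after adjustment by r, and 0 by Spearman's rho. Hsp90aa1 and Hsp90b1, the HSP90 proteins of the cytosol and the reticulum, had r = 0.93 (permutation p = 3e-05, adjusted 0.0271), rho = 0.87 (adjusted 0.0993) and r = 0.87 without the 2 mice farthest in Hsp90aa1. Leaving out each mouse in turn gave r from 0.90 to 0.96, and the pair passed in 7 of these 12 fits, failing without nontransgenic replicate 1, 2 or 5 or P467L replicate 4 or 5. The other rows of Hsp90aa1 gave r of 0.32 and -0.14 with Hsp90b1 on deviations from group means, against 0.93 for the row used. Their means were 5.49, near background, and 2.75, under it. The second pair was Gadd45g and Zfp36, a growth arrest gene and an mRNA decay factor, with r = 0.91 (permutation p = 6e-05, adjusted 0.0271), rho = 0.94 (adjusted 0.0677) and r = 0.83 without the 2 farthest mice. It passed in 6 of the 12 fits, failing without those 5 mice and without P467L replicate 6. Gadd45g values left a gap, with 6 mice at 4.92 to 5.04 and 6 at 5.28 to 5.59. The 6 lower mice all lay under the background of 5.18, so this pair rests in part on values not above background. The permutations treated the 12 mice as exchangeable and took no account of replicate numbers.

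**Figure D3:**
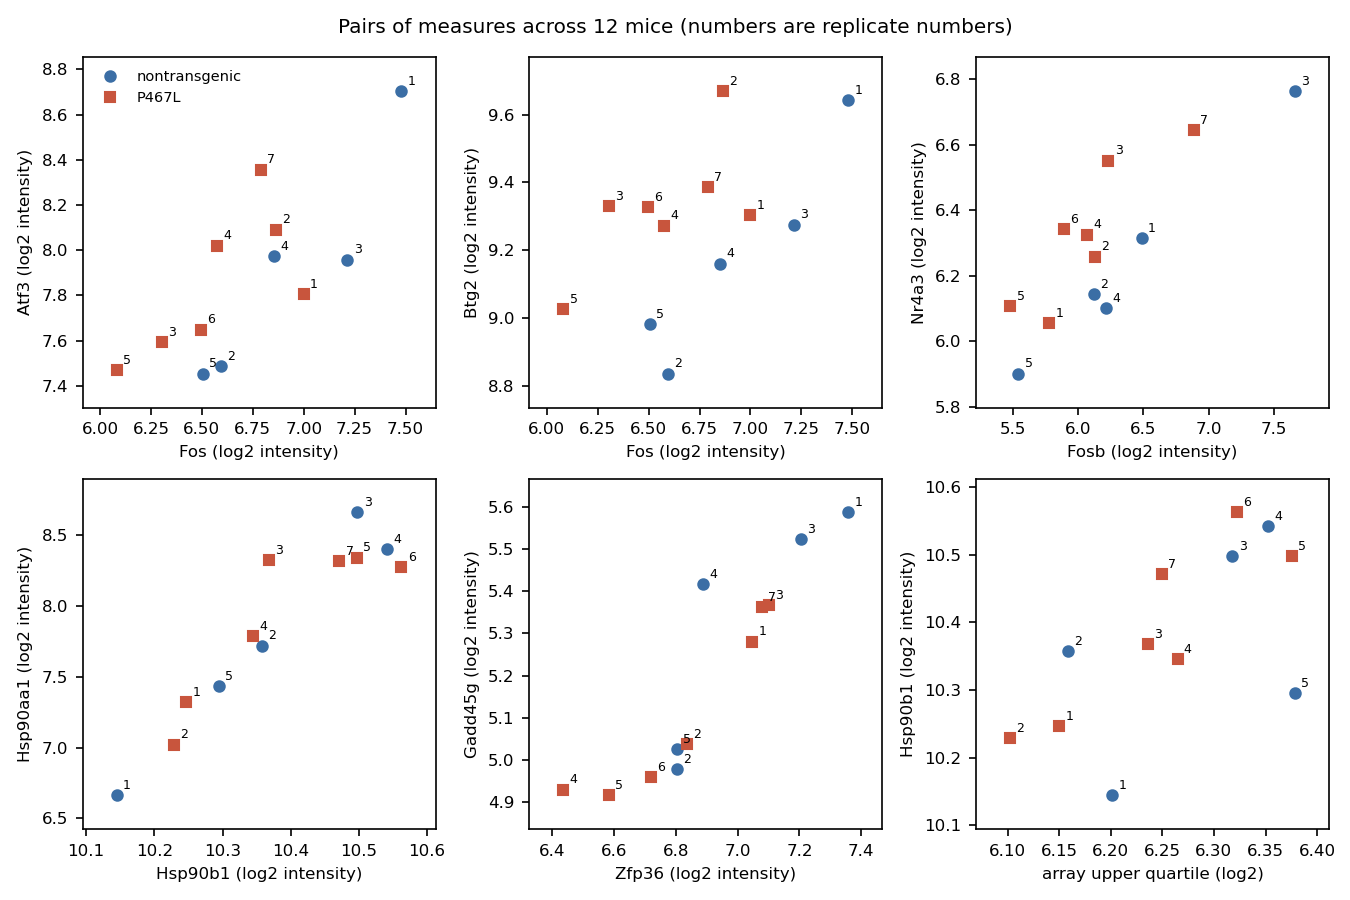
Scatter plots over 12 mice (circles nontransgenic, squares P467L, with replicate numbers): Atf3 and Btg2 against Fos, Nr4a3 against Fosb, Hsp90aa1 against Hsp90b1, Gadd45g against Zfp36 and Hsp90b1 against the array's upper quartile, all on log2 axes. Fos and Atf3 give r = 0.77 and Hsp90aa1 and Hsp90b1 r = 0.93.

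Fos was set against each of the other 42 genes as a planned family. Of the 42 correlations, 30 were positive and 12 negative, with a median r of 0.17, and 0 passed after adjustment (5 had an unadjusted permutation p under 0.05). The same shares over all genes were not computed, so these counts are not read as a trait of stress genes. Atf3 came first with r = 0.77 (permutation p = 0.00323, adjusted 0.136) and rho = 0.68, and r was 0.54 without nontransgenic replicate 1 and P467L replicate 5, the mice with the highest and lowest Fos. On deviations from group means r was 0.83 for Atf3 and 0.83 for Btg2 (adjusted permutation p = 0.0149 for either), which passed. Here and below, deviations were shuffled over all 12 mice. They sum to 0 within each group and are not fully exchangeable, so these p values may be too small. On the values Btg2 gave r = 0.55 (adjusted 0.425). Without the same 2 mice the r of deviations was 0.68 for Atf3 and 0.62 for Btg2, given without a test. Nr4a3 and Fosb gave r = 0.85 (adjusted 0.0655), and 0.62 without the 2 mice farthest in Fosb.

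Hspa1a gave no correlation that passed among 42 (2 had an unadjusted permutation p under 0.05), 20 positive and 22 negative. Shares over all genes were not computed for Hspa1a either. On the values, the most negative partner of Hspa1a was Btg2 with r = -0.73 (adjusted permutation p = 0.180). The most positive was Gadd45b with r = 0.72 (adjusted 0.180). By deviations from group means, Hsp90b1 was the most positive with r = 0.76 (adjusted permutation p = 0.189). Hsp90aa1 followed at 0.69, Hsph1 at 0.65 and Gadd45b at 0.61. Btg2 remained the most negative at -0.71, and no relation passed. On deviations from group means the median r was 0.20 over the 465 pairs of immediate-early genes and 0.37 over the 66 pairs of heat shock and unfolded protein genes, but 0.05 over the 372 pairs between them. The same median over all pairs of genes above background was 0.07. An r over 0.6 was found for 6.88% of the immediate-early pairs and 28.8% of the heat shock and unfolded protein pairs, and the first share is below the 15.1% of genes above background. Genes of 1 array share its hybridisation and normalization, and these medians are descriptions without a test.

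**Figure D4:**
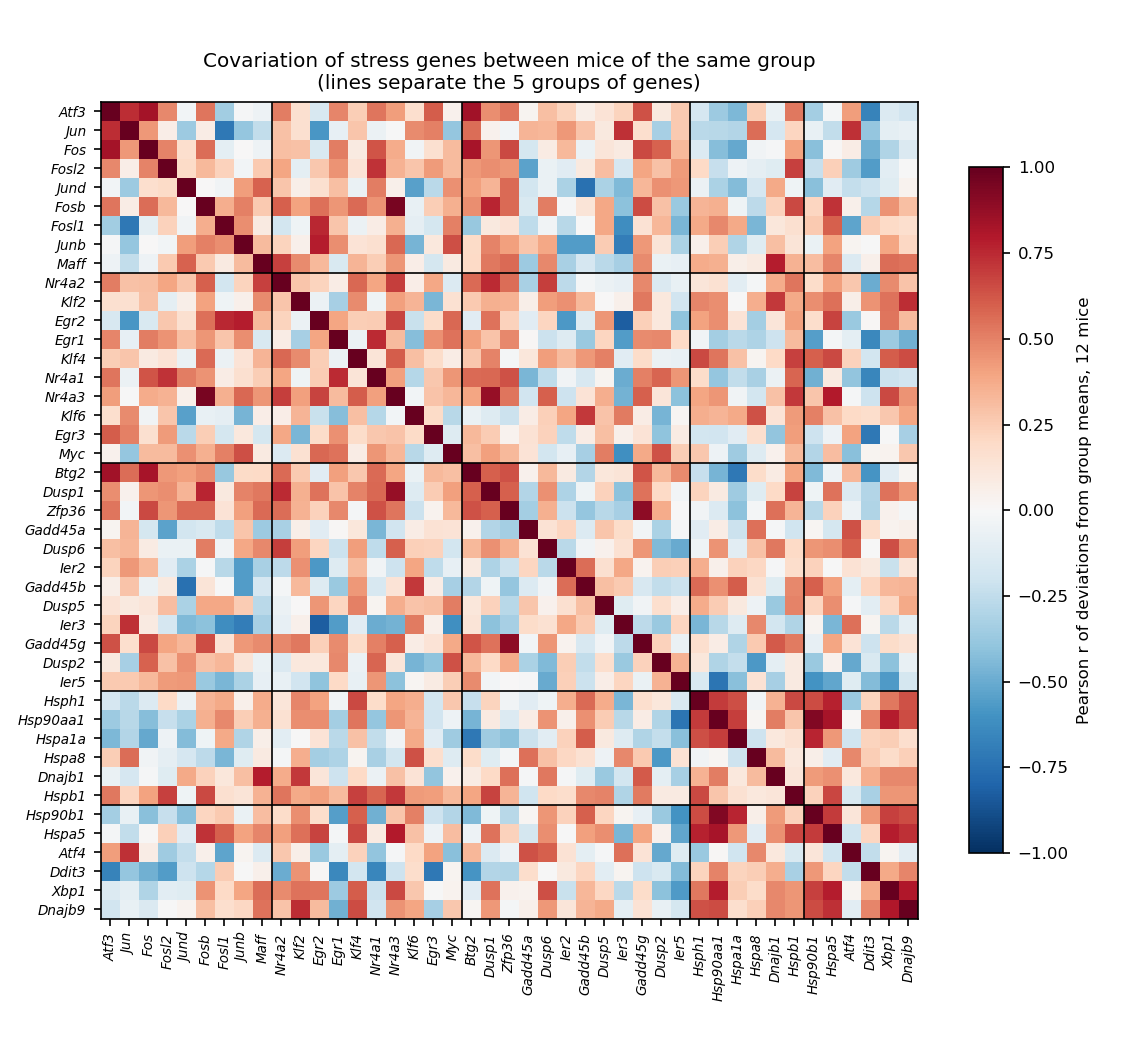
Pearson r of each pair of the 43 stress genes over 12 mice, computed on deviations from the group means, on a colour scale from -1 to 1 with lines between the 5 functional groups. The unfolded protein genes at the lower right have a median r of 0.44, and pairs between immediate-early and heat shock or unfolded protein genes a median of 0.05.

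By mouse, the immediate-early genes were highest in nontransgenic replicates 1 and 3 and lowest in nontransgenic replicate 5 and P467L replicate 5. The mean deviation of the AP-1 genes from their 12-mouse means was 0.27 and 0.23 in the first pair and -0.21 and -0.29 in the second. The mice of the second pair share a replicate number and had the highest array upper quartiles of the 12, both 6.38. The part of either in these values was not tested. Replicate 1 of the nontransgenic group was the highest of the 12 mice for 7 genes, all immediate-early, and P467L replicate 5 the lowest for 6, all immediate-early. Nontransgenic replicate 3 was highest for 10 of the 43 and nontransgenic replicate 5 lowest for 10. The cytosolic heat shock genes had their highest mean deviation, 0.40, in nontransgenic replicate 4 and their lowest, -0.41, in P467L replicate 2. Nontransgenic replicate 3 came next highest at 0.25 and nontransgenic replicate 5 next lowest at -0.31. These mice were also high and low for the immediate-early genes. The other extreme mice of the immediate-early genes went the opposite way, with heat shock means of -0.21 in nontransgenic replicate 1 and 0.11 in P467L replicate 5. Over the 31 immediate-early genes the mean deviation ran from -0.20 to 0.16 in nontransgenic and from -0.18 to 0.09 in P467L mice, so the groups overlapped. For the 12 others it ran from -0.17 to 0.25 and from -0.30 to 0.12.

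**Figure D5:**
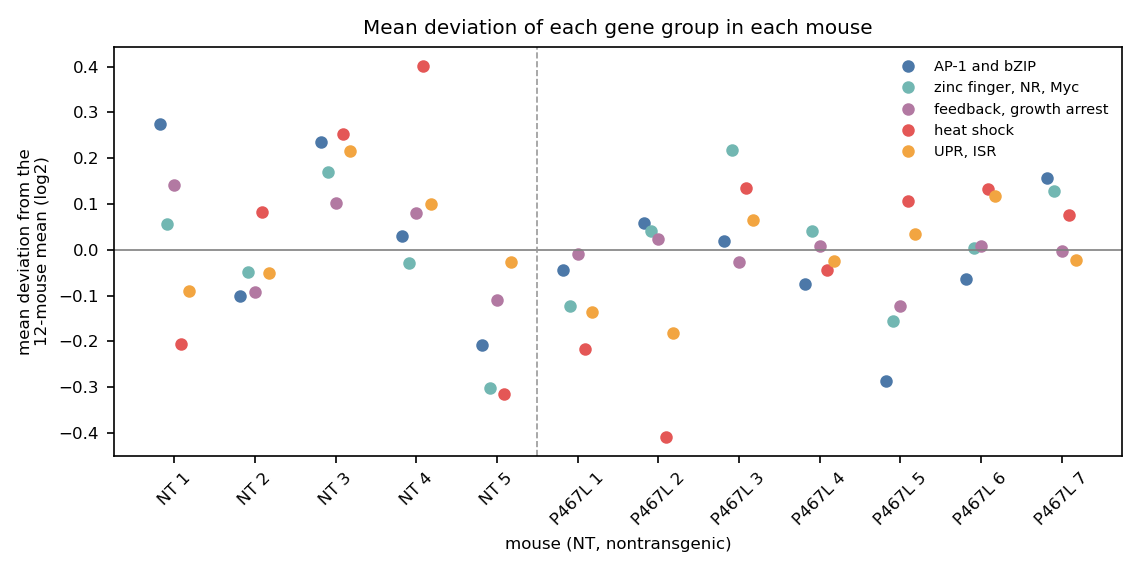
Mean deviation from the 12-mouse mean (log2, vertical axis) of 5 groups of stress genes in each of 5 nontransgenic (NT) and 7 P467L mice. The AP-1 genes reach 0.27 in nontransgenic replicate 1 and -0.29 in P467L replicate 5, while the heat shock genes reach 0.40 in nontransgenic replicate 4 and -0.41 in P467L replicate 2.

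The stress genes were also set against the overall intensity of the arrays. Against the upper quartile of each array, 0 of 43 correlations passed by r (8 had an unadjusted permutation p under 0.05) and 1 passed by rho. That gene was Egr1, with rho = -0.87 (adjusted permutation p = 0.0159) and r = -0.72 (adjusted 0.117). By deviations from group means, Nr4a1 passed with r = -0.85 (adjusted permutation p = 0.0198). Egr1 gave -0.78 there (adjusted 0.0542). All 6 unfolded protein genes correlated positively with the upper quartile, with r from 0.25 to 0.72 and a median of 0.58, Ddit3 highest at 0.72 and Hsp90b1 at 0.66. Of the 10650 genes above background, 65.3% correlated positively with it, with a median r of 0.36. Their share with an unadjusted p under 0.05 was not computed. The AP-1 genes gave 1 positive and 8 negative values. The part of array intensity in the correlations between genes was not tested.

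Of 113 further genes of the same pathways, 106 were measured, and 0 passed the limma test, against 0.244% of all genes. For 3 (2.83%) the unadjusted limma p was under 0.05, against 4.82% of all genes. Among 38 immediate-early genes, 16 were higher and 22 lower in P467L, with a median of -0.01. Ppp1r15a, the GADD34 phosphatase subunit that reverses eIF2α phosphorylation, was 6.39 ± 0.24 (SD, n = 5) and 6.69 ± 0.23 (SD, n = 7), a difference of 0.30 ± 0.13 (limma adjusted p = 0.986). Plk2, a polo-like kinase, differed by -0.20 ± 0.09. Among 33 heat shock genes, 8 were higher and 25 lower, with a median of -0.06, against 9949 higher and 9738 lower of all genes. The smallest unadjusted p values there belonged to Hspa2, an HSP70 relative, at -0.18 ± 0.10, and Ahsa1, the activator of the HSP90 ATPase, at -0.13 ± 0.09. Among 35 unfolded protein response genes, 16 were higher and 19 lower, with a median of -0.00. Ddit4, a stress-induced inhibitor of mTORC1, had a mean under background and differed by 0.38 ± 0.20, and Dnajc10, a reticulum disulfide reductase, by -0.17 ± 0.12.

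Other genes that varied most like Fos and Hspa1a were taken from 10610 genes above background, by Pearson r of deviations from group means over 12 mice. For Fos these were Iqsec2 (0.90), Tmem179 (0.89), Fam102a (0.87), Lrrc47 (0.86) and Fam174b (0.85), where the 99th percentile over the genes was 0.72. All of them were above the 0.83 that Atf3 and Btg2 gave with Fos. For Hspa1a they were Rpn1 (0.91), Hbegf (0.87), Cldn12 (0.86), Vit (0.86) and Pdlim5 (0.85), with a 99th percentile of 0.69. Hbegf encodes a growth factor that binds the EGF receptor, and Rpn1 a subunit of the oligosaccharyltransferase of the reticulum. These values rank genes by likeness and carry no test.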

How the data were processed

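Exon array values were used as deposited, on the log2 scale, 1 column per mouse. Per the submitters' processing notes, the authors used the mm9 build and RMA in Affymetrix Power Tools, with no versions or filters named. This method corrects background, normalizes across arrays and shrinks differences of dim genes. Precision is set by the 12 arrays. About 50 ng of RNA per mouse was amplified in 2 steps, per the labels' protocols, which can add variation between arrays.

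Of 101175 rows, 22754 had 1 gene symbol in the platform annotation, and 22245 of these were found in RefSeq by Entrez ID. The table held 0 columns of other samples. P467L was compared with nontransgenic by limma 3.58.1 (R 4.3.3) on 19687 genes, with Benjamini-Hochberg adjustment and a threshold of 0.05. On simulated shifts of 0.5, 1 and 2 in 200 genes drawn from all genes, with independent noise, 48.5%, 89.5% and 100% were recovered. The stress genes had a median within-group SD of 0.23 against 0.19 over all genes, so these shares do not give the recovery of stress genes. Errors after ± are SE for differences and SD for levels. Correlations were tested with 100000 permutations (smallest p 1e-05, Python 3.11.15), and the 903 pairs were added after seeing the data.

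The genes and lists were chosen with earlier results of these data known. Every measured member is named, with the 2 smallest p per pathway list and the 5 genes most like Fos and Hspa1a. Arrays of the same replicate number deviated together (r 0.227 to 0.398 in all 5 pairs, own number best in 3), which meets the rule used for pairing, though no label gives their meaning. The limma fit reported and the permutations left the numbers out, and a block fit is an alternative. Alternatives were the replicate block, leaving out each array, other normalizations, row choices, variance settings and intensity as a covariate.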

Additional observations from a re-analysis of the deposited data

Results flagged for a closer look

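Among 86 groups of values, 5 held 1 mouse whose gap to the nearest other was large against the group's whole range, and chance gives about 1 group in 20. Hspb1 was lowest in nontransgenic replicate 5 at 4.40, with the next value at 5.24. Xbp1 was highest in nontransgenic replicate 3 at 7.10, with the next at 6.82. Klf4 was lowest in P467L replicate 1 at 5.81, with the next at 6.34. Fosl2 was lowest in P467L replicate 5 at 6.06, with the next at 6.46. Ier3 was lowest in P467L replicate 3 at 5.14, with the next at 5.40.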

How the results depend on the processing

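The count of stress genes past the threshold was 0 under all 22 alternatives run, and so was that of the other pathway genes. The count over all genes moved from 48 to 30 under a replicate block (a fit that changed no call of a stress gene), to 76 with quantile normalization, to 106 with the upper quartile as a covariate and to 4 with all rows tested. Leaving out each array in turn gave 11 to 48, the lowest without nontransgenic replicate 1. Without the 3 least correlated arrays, an alternative chosen after seeing the data, it was 8. With the block Hspa1a differed by -0.71 (limma adjusted p = 0.471); over all settings its adjusted p was never under 0.361. On deviations from group means 2 relations with Fos passed in place of 0, and 1 relation with the upper quartile in place of 0; the cause was not tested. The 2 pairs of genes that passed became 3 on deviations and 0 to 3 when each mouse was left out, with 0 without nontransgenic replicates 1, 2 or 5 or P467L replicates 4 or 5, and 1 without P467L replicate 6. The number of arrays and signals near background limit Maff, Hspb1, Dnajb9, Gadd45g, Myc, Dusp2 and Ier5.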
